A study of Drosophila melanogaster with 36 samples.

Results

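Lysozymes are enzymes that cut the sugar backbone of bacterial cell walls. The genes described here are the gut lysozymes of Drosophila melanogaster that carry the symbols LysB, LysC, LysD, LysE, LysP, LysS and LysX. They were chosen by symbol in the gene count tables, and 6 of the 7 have an entry among the 17582 named genes. LysC, which the annotation lists as a pseudogene, has no entry under its symbol or a synonym, and its reads were not analysed here. The 6 genes were followed over 36 libraries of whole wild-type flies, labelled WT with no strain name. Exposed flies inhaled an aerosol of CMIT/MIT, a biocide mixture of chloromethylisothiazolinone and methylisothiazolinone, for 1 hour at 330 mg/m3, and control flies inhaled filtered air. Females and males were sampled apart on days 1, 2 and 7 in each arm, giving 12 groups of 3 libraries. No ages of the flies and no number of flies per library are given, and nothing says that libraries of a group came from separate cultures, so p-values measure only the spread between these libraries.

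In Drosophila most of these enzymes are digestive. LysB, LysD and LysE are transcribed in the midgut of larvae and adults, where their products act on bacteria taken in with food. LysP is known from the adult salivary gland, LysS from the gastric caeca of the larval gut, and LysX from the gut around metamorphosis. Unlike antimicrobial peptides, they are not known as genes that infection switches on. Because whole flies were sequenced, fewer gut cells and less lysozyme RNA per gut cell cannot be told apart in any value below.

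All 7 genes lie on chromosome arm 3L within 33500 bases, in dm6 coordinates of the Ensembl BDGP6.54 annotation. LysX (FBgn0004431) stands at the left end at chr3L:1194739-1195302 on the minus strand, and 12068 bases separate it from LysB. LysB (FBgn0004425) occupies chr3L:1207371-1207981 on the plus strand. LysD (FBgn0004427) follows at chr3L:1210717-1211196 on the minus strand, and LysE (FBgn0004428) at chr3L:1212827-1213406 on the plus strand. LysB, LysC, LysD and LysE are thus packed into 6036 bases. LysP (FBgn0004429) lies at chr3L:1218082-1218696 on the minus strand and LysS (FBgn0004430) at chr3L:1227747-1228238 on the plus strand. All but LysX are nested within multiple wing hairs (mwh), a gene of wing hair polarity, and overlap none of its exons. LysD and the LysC pseudogene overlap by 10 bases at the 3′ end of LysD, the end that this 3′ end assay reads. No source used here states the strand setting of the counting or its treatment of reads that match several copies. LysB, LysD and LysE are near-identical copies, so the split of reads among them is uncertain, and each is reported together with the others.

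**Figure D1:**
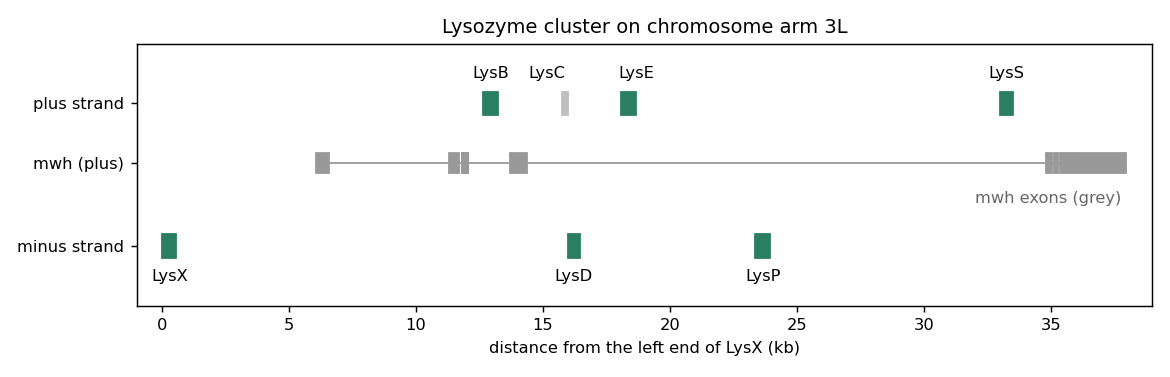
Map of the lysozyme cluster, drawn to scale in kilobases from the left end of LysX, with plus-strand genes above and minus-strand genes below. Grey boxes on the middle line are mwh exons, and the pale box is the LysC pseudogene. LysB, LysC, LysD and LysE sit together within 6036 bases inside mwh, and LysX stands 12068 bases away from LysB.

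Library depth ran from 9525565 to 17182966 counts in females and from 4681333 to 15444994 in males, so that 3 counts, taken as the floor, correspond to 0.175 to 0.641 CPM, counts scaled to a common library total. These floors, and the binomial intervals of read shares given below, cover counting error only. In 2 libraries, transcripts of both sexes were present. Replicate 1 of exposed females on day 2 had 254 CPM of the male RNA roX1 beside 6206 CPM of the yolk protein gene Yp1. Replicate 3 of exposed males on day 2 had 209.8 CPM of roX1, with Yp1 at 6700.2 CPM. The other male libraries had 847 to 1721 CPM of roX1 and 0.944 to 176 CPM of Yp1. In the other female libraries roX1 was 0.837 to 7.01 CPM and Yp1 3248 to 15752 CPM. Yp1 in the male-labelled library thus lay within the female range, and its roX1 below the male range. The 2 libraries with transcripts of both sexes are called mixed libraries below. They were kept, and day 2 differences are also given without them where stated.

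LysD had the most counts of these genes, with a mean of 405 CPM over the 36 libraries, or 843 CPM per kilobase of gene. It held 78.8% of all lysozyme counts. LysB averaged 44.9 CPM and LysE 42.9 CPM, which corresponds to 73.5 and 73.9 CPM per kilobase. LysX averaged 13.2 CPM and LysP 11.7 CPM, or 23.3 and 19.0 CPM per kilobase. Counts of a 3′ end assay do not grow with gene length, so no order is read from the per-kilobase values. LysS was close to absent, with 23 counts in all, spread over 11 of the 36 libraries. Its highest value was 7 counts, or 0.836 CPM, in replicate 3 of exposed males on day 7, and no fold is given for it. LysS did not pass the filter on low counts, which leaves 5 genes tested in every comparison below.

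**Figure D2:**
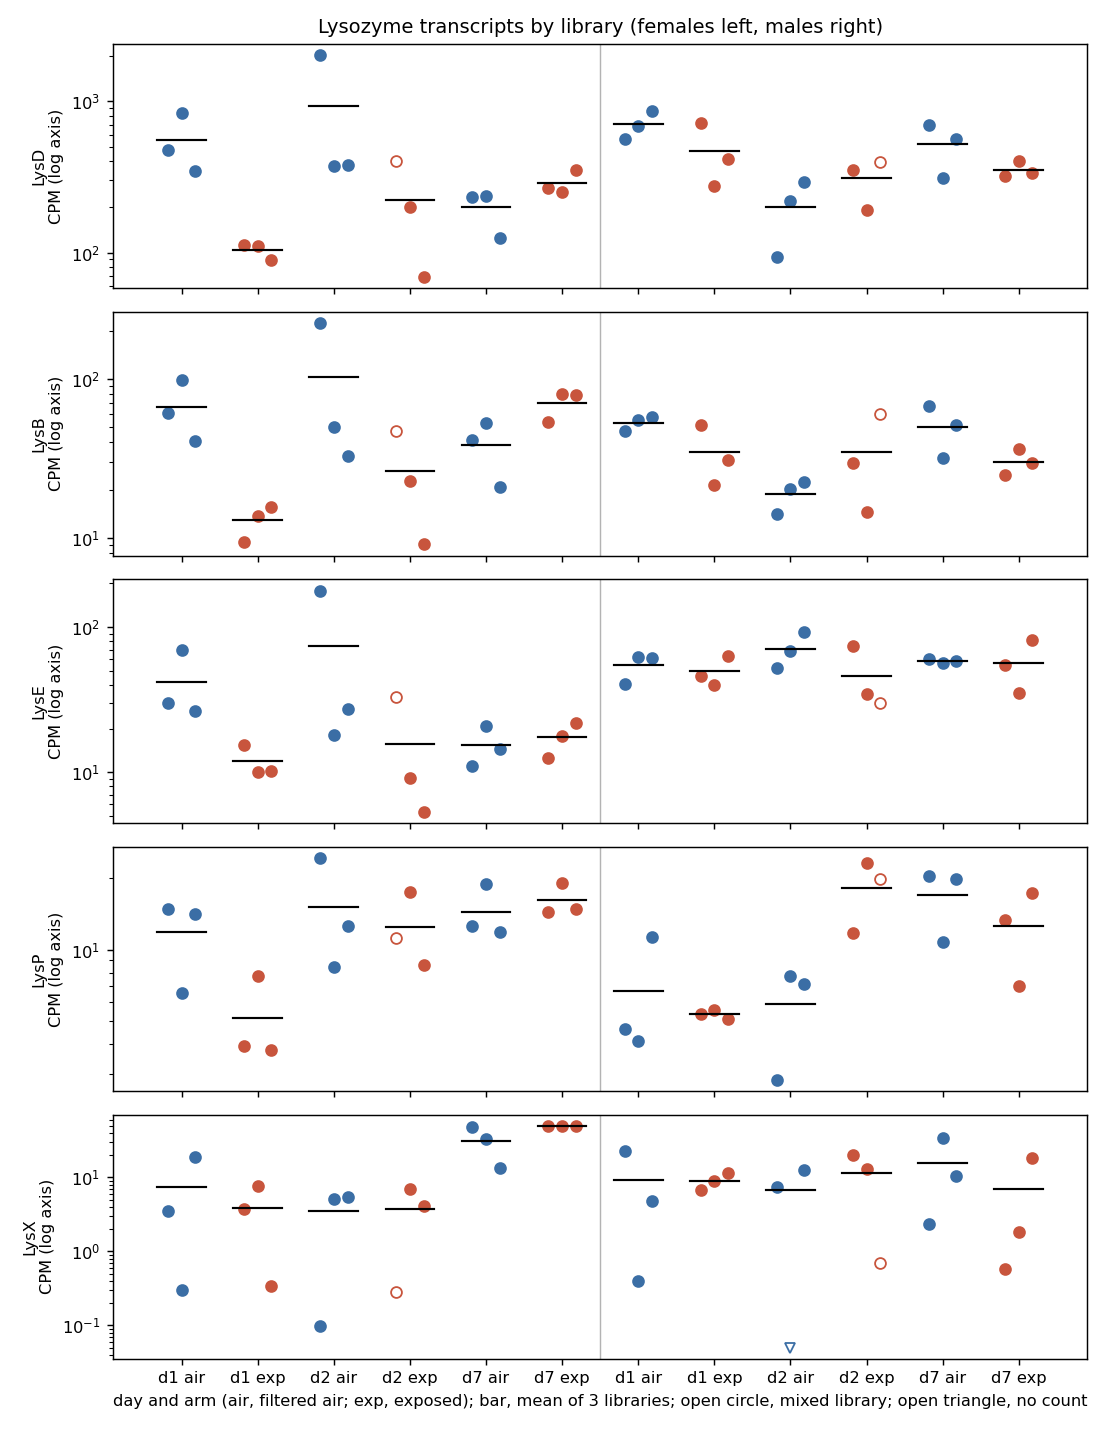
CPM with TMM scaling within each sex on log axes, by day and arm, females to the left of the grey line and males to the right. Points are libraries (blue air, red exposed), bars are means of 3, open circles are the mixed libraries and the open triangle is a library without a LysX count. On day 1 the exposed females sit below the air females for LysD, LysB and LysE, and LysX varies from 0 to 49.4 CPM.

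On day 1, each of the midgut copies LysB, LysD and LysE was lower in every exposed female library than in any air female library, although none of the differences passed the adjusted test. LysD read 479, 833 and 348 CPM in the 3 air libraries and 113, 111 and 89.5 CPM in the 3 exposed libraries. The arms did not overlap, and the means were 553 ± 251 and 104 ± 12.9 CPM (SD, n = 3). The difference was -2.41 on the log2 scale (SE 0.62), a 5.30-fold lower mean in exposed females. It did not pass the edgeR quasi-likelihood F test after Benjamini-Hochberg adjustment over 9893 genes (unadjusted p = 0.00114 from the edgeR fit, adjusted p = 0.106).

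LysB showed the same arrangement of libraries on day 1. Air females had 61.0, 97.8 and 40.8 CPM and exposed females 9.38, 13.7 and 15.6 CPM. The log2 difference was -2.37 (SE 0.64, adjusted p = 0.13), with every exposed library below every air library. LysE read 29.8, 70.0 and 26.6 CPM in air and 15.5, 9.97 and 10.2 CPM after exposure. Its log2 difference was -1.82 (SE 0.73, adjusted p = 0.282), again without overlap. Exposed libraries lay below all air libraries in 8.98% of all genes tested, beside these 3 of 5 lysozymes.

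LysP, the salivary gland lysozyme, differed by -1.19 on the log2 scale in day 1 females (SE 0.42, adjusted p = 0.235). It had 14.8, 6.55 and 14.1 CPM in air and 3.92, 7.76 and 3.80 CPM after exposure, and the arms overlapped through air replicate 2. LysX differed by -0.92 (SE 1.10, adjusted p = 0.818), and its arms overlapped widely. None of the 5 genes passed the adjusted test by edgeR in day 1 females, where 0.263% of all genes did, although 4 had an unadjusted p below 0.05, as did 12.7% of all genes. DESeq2 placed 2 of them, LysB and LysD, past the same threshold (adjusted p = 0.0336 and 0.0241), with 2.76% of all genes past it. Under the threshold in the series text, more than 1.5-fold with an unadjusted p below 0.05, 4 of the 5 were lower, against 6.11% of all genes.

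On day 2, the female air group was led by replicate 1. LysD read 2019 CPM in that library, against 372 and 378 CPM in the other two, and exposed females had 401, 199 and 69.2 CPM. The highest exposed value is that of the mixed library, and it lay above both of the lower air values. Air replicate 1 had the lowest TMM factor of the female libraries, 0.7007. Without TMM scaling its LysD was 1415 CPM, against 375 and 388 CPM in the other air libraries. LysB had 225, 49.7 and 32.9 CPM in air and 47.0, 22.9 and 9.07 CPM after exposure. LysE had 178.5, 18.2 and 27.2 CPM in air and 32.7, 9.19 and 5.30 CPM after exposure. All arms overlapped on this day, for LysB, LysD and LysE only through the mixed library. Air replicate 1 also had the highest summed level of markers of enterocytes, the absorptive cells of the midgut, among the 3 air libraries, 165 CPM against 84.6 and 75.6 CPM, and of digestive enzymes, 29529 CPM against 8284 and 7289 CPM. Their part in the lysozyme values of that library was not tested.

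The log2 differences on day 2 in females were -2.05 for LysD (SE 0.61, adjusted p = 0.225), -1.96 for LysB (SE 0.63, adjusted p = 0.268) and -2.24 for LysE (SE 0.73, adjusted p = 0.284). They depended strongly on air replicate 1. Without it they were -0.75, -0.65 and -0.53. Without the mixed libraries they were -2.77, -2.67 and -3.35, with adjusted p = 0.078, 0.12 and 0.0768. LysP and LysX differed by -0.27 and 0.06 (adjusted p = 0.863 and 0.994). None of the 5 passed the adjusted test by edgeR or DESeq2, where 0.455% of all genes passed by edgeR, and 3 had an unadjusted p below 0.05, as did 9.52% of all genes. The series threshold called the same 3, LysB, LysD and LysE, as lower, against 4.36% of all genes.

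On day 7, exposed females had the higher mean in all 5 genes. LysD read 233, 238 and 125 CPM in air and 267, 253 and 349 CPM after exposure, a log2 difference of 0.54 (SE 0.59). LysB had 41.1, 52.6 and 20.7 CPM in air and 53.4, 79.7 and 79.4 CPM after exposure, a difference of 0.89 (SE 0.61). In LysB, LysD and LysX all exposed libraries lay above all air libraries, an arrangement found in 9.33% of all genes. LysE and LysP overlapped between arms, with differences of 0.17 and 0.16. LysX differed by 0.66, and every adjusted p was 1. No lysozyme had an unadjusted p below 0.05 and none passed by edgeR or DESeq2, while 0.0101% of all genes passed by edgeR.

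The exposure effect in females thus had a negative sign on day 1 and a positive sign on day 7 in all 5 tested genes, although no gene was called. The sign was not stable for LysX on day 1, which gave 1.06 without air replicate 3, or for LysE on day 7, which gave -0.04 without air replicate 1 or exposed replicate 3. The effect on day 7 minus that on day 1 was 3.26 for LysB (SE 0.88), 2.95 for LysD (SE 0.85) and 1.99 for LysE (SE 1.01) on the log2 scale. The test of any difference among the 3 daily effects gave adjusted p = 0.18, 0.222 and 0.497. No lysozyme passed by edgeR or DESeq2 and 2 had an unadjusted p below 0.05, beside 10.7% of all genes, while 0.445% of all genes passed by edgeR.

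**Figure D3:**
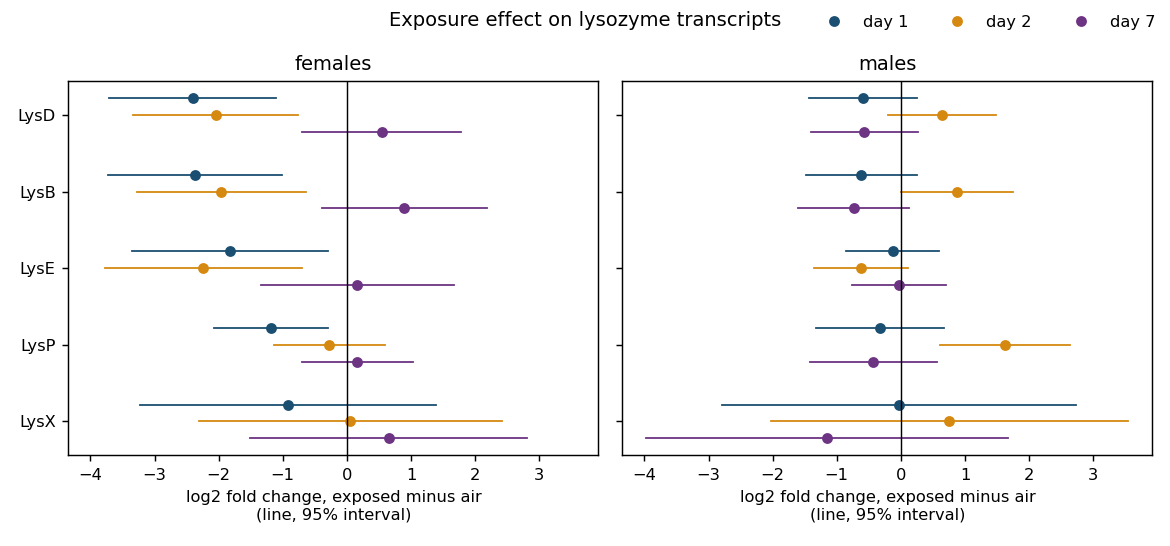
Log2 fold change of exposed against air flies for 5 lysozymes (rows), by sex and day, with 95% intervals from the edgeR fit. LysD, LysB and LysE in females are near -2 on days 1 and 2 and above 0 on day 7, and the male intervals include 0 except those of LysB and LysP on day 2.

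In males the exposure differences on days 1 and 7 had a negative sign in all 5 genes. On day 1 LysD had 564, 687 and 863 CPM in air and 717, 277 and 413 CPM after exposure, and the arms overlapped. The log2 differences were -0.59 for LysD, -0.61 for LysB, -0.13 for LysE, -0.32 for LysP and -0.03 for LysX, each with adjusted p = 1. On day 7 they were -0.57 for LysD, -0.74 for LysB, -0.03 for LysE, -0.43 for LysP and -1.15 for LysX, again with adjusted p = 1. The sign turned when single libraries were left out for LysE, LysP and LysX on day 1 and for LysE and LysX on day 7. On both days the arms of all 5 genes overlapped, no gene had an unadjusted p below 0.05, and none passed by edgeR or DESeq2. The share of all genes past the adjusted threshold by edgeR was 0% on both days.

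On day 2 in males, LysP had 2.84, 7.73 and 7.19 CPM in air and 11.8, 23.1 and 19.7 CPM after exposure, the last value from the mixed library. The exposed libraries of LysP lay above all air libraries, as in 6.44% of all genes. Its log2 difference was 1.63 (SE 0.49, adjusted p = 0.0887), and 1.58 without the mixed library (adjusted p = 0.495). LysB differed by 0.87 (adjusted p = 0.228), LysD by 0.64 (adjusted p = 0.359), LysE by -0.62 (adjusted p = 0.31) and LysX by 0.76 (adjusted p = 0.764). All these arms overlapped, and the highest exposed LysB value, 60.2 CPM against 29.4 and 14.5 CPM, is that of the mixed library. No lysozyme passed by edgeR, where 0% of all genes did, and 2 had an unadjusted p below 0.05, as did 21.8% of all genes. DESeq2 called LysP (adjusted p = 0.0221), beside 6.72% of all genes. The series threshold called LysB and LysP higher, against 16.4% of all genes. Without the mixed library the exposed mean of LysB was 21.9 CPM against 19.0 CPM in air, and the log2 differences were 0.21 for LysB, 0.43 for LysD, -0.39 for LysE and 1.30 for LysX (adjusted p = 0.971, 0.922, 0.909 and 0.922). The part of the mixed library in these values was not tested beyond leaving it out.

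The exposure effect was also compared between the sexes, in a fit of all 36 libraries. On day 2 the female effect less the male effect was -2.63 for LysB (SE 0.82, adjusted p = 0.036) and -2.49 for LysD (SE 0.80, adjusted p = 0.0403), so both passed the threshold. LysP stood at -1.82 (SE 0.66, adjusted p = 0.0628). The 2 calls among 5 genes stand beside 12.2% of all genes called on that day, 4.47% in the same direction. Both calls were lost without the mixed libraries (adjusted p = 0.287 for LysB and 0.165 for LysD), where the differences were -2.89 and -3.22. Leaving out single libraries of day 2 lost each of the calls in 8 of 12 cases, and without air female replicate 1 the differences were -1.40 and -1.28. On day 1 the differences were -1.79 for LysB and -1.85 for LysD (adjusted p = 0.594 and 0.566). None passed by edgeR or DESeq2 on day 1, where 2 lysozymes and 8.04% of all genes had an unadjusted p below 0.05 and 0.0151% of all genes passed, and on day 7 none passed by either tool or had an unadjusted p below 0.05, with 0% of all genes called by edgeR.

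LysE passed the test as lower in females than in males in both arms, in air by about as much as the median gene. The LysE means on day 2 in air were close, with 72.7 CPM in females and 74 CPM in males, scaled over all 36 libraries. LysE group means in air, in the same scaling, ran from 15.2 to 72.7 CPM in females and from 55.7 to 74 CPM in males. In exposed flies they ran from 10.96 to 17.6 CPM in females and from 47.45 to 58.6 CPM in males. In air, females minus males gave -0.84 on the log2 scale (SE 0.36, adjusted p = 0.0303), lower in females, as were 50.7% of all genes, with 86.7% called in either direction. In exposed flies the difference was -1.83 (SE 0.37, adjusted p = 4.87e-05), and LysD was lower as well, by -1.03 (SE 0.32, adjusted p = 0.00447), beside 52% of all genes, with 85.9% called in either direction. In air LysB and LysP gave 0.69 and 0.55 (adjusted p = 0.0512 and 0.0546).

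The level of all other transcripts also differs between whole females and whole males, and the scaling moved it. The median over all genes tested was -0.69 in air and -0.79 in exposed flies with TMM scaling, and -1.06 and -1.12 with DESeq2 size factors. Relative to that median, LysE in air stood at -0.15, and at -0.13 under size factors. In exposed flies it stood at -1.04 and -1.09. LysD in exposed flies stood at -0.24 and -0.25, LysB in air at 1.38 and 1.39, and LysP in air at 1.24 and 1.25. The call of LysE in air was lost when any of 6 of 18 single libraries was left out, and no such case arose for LysD and LysE in exposed flies.

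The division of reads among the midgut copies does not depend on scaling. LysE made up 3.77% to 11.3% of the counts of LysB, LysD and LysE together in the 17 female libraries that are not mixed, with a median of 6.35%. In the 17 male libraries it made up 5.64% to 32.8%, with a median of 12.5%. The highest shares were all in air males on day 2, with a mean of 25.9% ± 5.96 (SD, n = 3) and a range of 22.1% to 32.8%. In that group LysD had 93.2, 219 and 291 CPM, its lowest mean among the male groups, while LysE had 52.3, 68.0 and 92.8 CPM, its highest. LysB held 6.82% to 22.8% in females and 5.53% to 8.81% in males, again without the mixed libraries. Its female shares were highest on day 7, with 14.7% ± 1.99 in air and 18.8% ± 3.50 in exposed flies (SD, n = 3). These shares are a description of the deposited counts, and how shared reads were assigned was not tested.

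**Figure D4:**
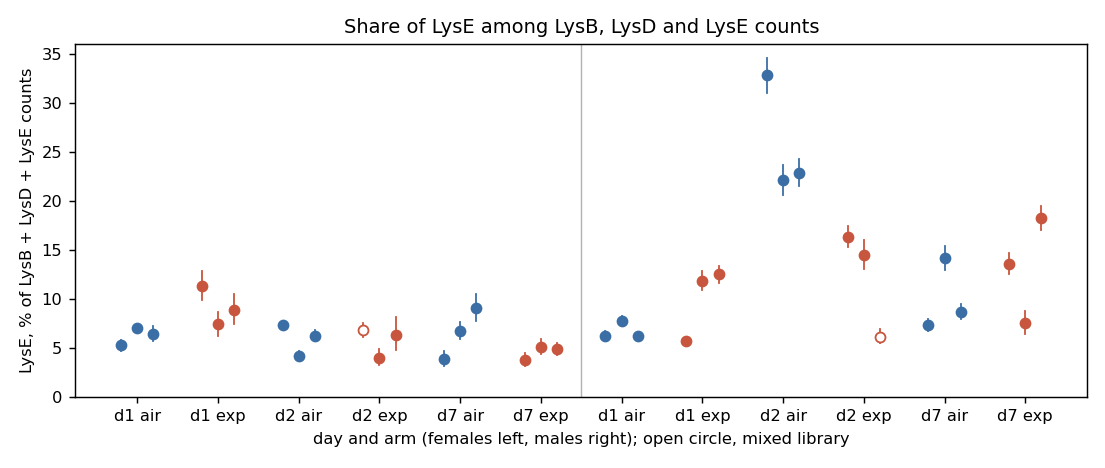
Share of LysE among the counts of LysB, LysD and LysE in each library, with exact 95% binomial intervals that cover counting error only. Females are to the left of the grey line, open circles are the mixed libraries, and the 3 air males of day 2 stand highest at 22.1% to 32.8%.

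Over the days within an arm, LysX covered a wide range. It read 3.48, 0.305 and 18.6 CPM in air females on day 1, 0.099, 5.13 and 5.38 CPM on day 2 and 47.4, 32.7 and 13.5 CPM on day 7. In exposed females it read 3.69, 7.53 and 0.338 CPM on day 1, 0.284, 6.99 and 4.05 CPM on day 2 and 48.8, 49.2 and 49.4 CPM on day 7. The day 7 libraries were thus the highest of the exposed females, and air females on days 1 and 7 overlapped. Day 7 minus day 1 was 3.66 on the log2 scale in exposed females (SE 1.15) and 2.08 in air females (SE 1.08). The test of any difference among the 3 days gave adjusted p = 0.0591 in exposed and 0.295 in air females. In this and the following paragraphs on days, every adjusted p is of that test over the 3 days and not of the difference between days 7 and 1.

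In exposed females, day 7 minus day 1 was 2.46 for LysB (3-day adjusted p = 0.0662) and 1.63 for LysP (3-day adjusted p = 0.0753). Exposed libraries of LysE on days 1 and 7 overlapped, and its 3-day adjusted p was 0.892, with 0.315 for LysD. LysP had 3.92, 7.76 and 3.80 CPM on day 1 and 14.4, 19.1 and 14.8 CPM on day 7. None of the 5 lysozymes passed the test over the 3 days in exposed females by edgeR, where 3.68% of all genes did. An unadjusted p below 0.05 was found for 3 of them and for 19.2% of all genes, and DESeq2 called LysB and LysP beside 8.58% of all genes. In air females LysD and LysE gave -1.48 and -1.45 for day 7 minus day 1 (3-day adjusted p = 0.217 and 0.284). None passed by edgeR or DESeq2 in air females, beside 0.131% of all genes by edgeR, and 3 had an unadjusted p below 0.05, as did 14% of all genes.

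In males, LysP had a higher mean on day 7 than on day 1 in both arms. The log2 difference was 1.34 in air (3-day adjusted p = 0.297) and 1.23 in exposed males (3-day adjusted p = 0.134). Air males had 4.65, 4.13 and 11.3 CPM on day 1 and 20.3, 10.8 and 19.8 CPM on day 7, and these ranges overlapped. LysD in air males gave -0.43 for day 7 minus day 1 (3-day adjusted p = 0.166), with the lowest values on day 2. None passed by edgeR in either arm, beside 0.155% of all genes in air and 0.855% in exposed males. DESeq2 called LysD in air, beside 1.67% of all genes, and LysP in exposed males, beside 5.16%. The unadjusted p was below 0.05 for 3 lysozymes in air and 1 in exposed males, beside 8.31% and 19.5% of all genes. The change of the exposure effect over days in males had a lowest adjusted p of 0.647 among lysozymes, with none passing by edgeR or DESeq2 and 2 below 0.05 unadjusted, beside 0% of all genes called by edgeR and 7.65% below 0.05 unadjusted.

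Within each sex the order of groups was mostly blurred by the spread of libraries. For LysD in females, air on day 2 had the highest mean and exposed flies on day 1 the lowest, and of the neighbours in this order only the lowest pair, air on day 7 and exposed on day 1, had libraries that did not overlap. For LysE in females the gap lay between air on day 1 and exposed on day 7. For LysX in females it lay at the top, between exposed and air flies on day 7. In males, LysB alone had neighbours apart, with exposed flies on day 7 above air flies on day 2. All neighbours overlapped for LysP in both sexes.

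The midgut copies followed each other across libraries to different degrees. Each log2 CPM value was taken less the mean of its sex. LysB and LysD then correlated at r = 0.912 over 36 libraries, with 0.916 within females and 0.91 within males. LysD and LysE correlated at 0.924 in females and 0.032 in males. LysX had r = -0.218 with LysD, -0.09 with LysB and -0.313 with LysE over 36 libraries. These values are descriptions, since the libraries share groups, depth and, for the copies, possibly reads.

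Among 13236 genes, those most like LysD over the 36 libraries, in the same measure, included proteases of the digestive tract. The Jonah serine proteases Jon65Aiii and Jon65Aiv correlated with it at r = 0.925 and 0.912, Diedel3 at 0.907, the trypsin alphaTry at 0.904 and the aspartic protease Bace at 0.887. Without the mixed libraries r for Jon65Aiii was 0.933. In day 1 females Jon65Aiii had a mean of 693 ± 116 CPM in air against 239.5 ± 73.0 CPM after exposure (SD, n = 3).

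**Figure D5:**
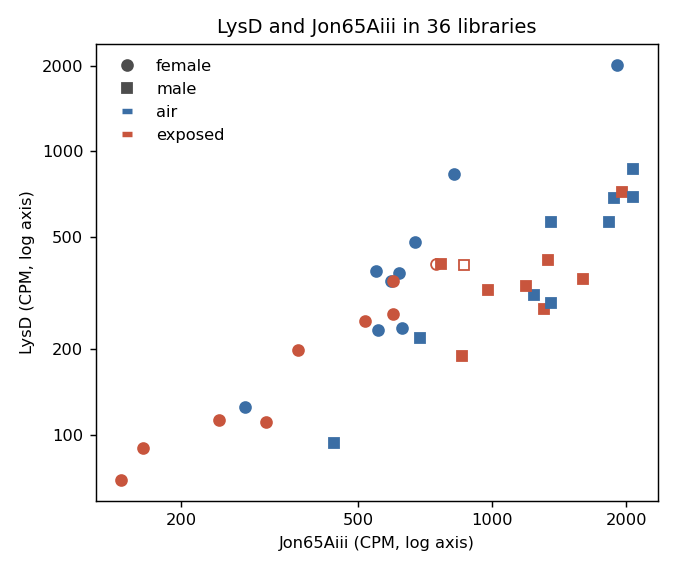
LysD against Jon65Aiii, the gene whose profile was most like it, in 36 libraries on log axes. The correlation, r = 0.925, is of log2 CPM less the mean of each sex, and the points are plotted without that step. Circles are females, squares males, blue air and red exposed, and open symbols are the mixed libraries. Exposed females of day 1 lie at the lower left, and air female replicate 1 of day 2 at the upper right.

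Digestive enzymes and enterocyte markers had values in the same direction as the lysozymes in day 1 females. Of 38 digestive enzymes tested, 36 had a negative log2 difference, with a median of -1.79, beside -0.005 over all genes tested, and none passed the adjusted test. Their summed level was 8714 ± 2560 CPM in air against 3030 ± 511 CPM in exposed flies (SD, n = 3). The 5 enterocyte markers were all negative with a median of -1.11. Their summed level ranged from 68.5 to 97.8 CPM in the air libraries and from 30.7 to 53.2 CPM in the exposed ones, with no defining marker called. The part of enterocyte number in the lysozyme values was not tested. Of the other gut lists, 3 had higher mean sums in exposed females, from 75.3 to 114 CPM for enteroendocrine markers, from 131.5 to 143 CPM for midgut progenitors and from 152 to 172 CPM for the proventriculus, with overlapping libraries in each list and none of their genes called. The list of copper and iron cells, with 1 gene tested, had the lower mean, 1157 against 1381 CPM, also with overlap. Haemocyte, fat body and female markers, all from outside the gut, had lower sums in every exposed library. Female markers, Yp1 among them, summed to between 18005.7 and 24713.6 CPM in air and between 16359.8 and 17815.2 CPM after exposure. Haemocyte markers summed to 22.5 to 40.1 CPM in air and 10.4 to 21.1 CPM after exposure, and fat body markers to between 175 and 276 CPM and between 119 and 161 CPM. All 4 haemocyte markers tested and 1 of 2 fat body markers had a negative log2 difference, and none was called. Their part in the result was not tested either. The 3 salivary gland markers summed on day 1 to between 49.7 and 64.4 CPM in air females and between 53.7 and 77.6 CPM after exposure, values that stand beside those of LysP.

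On day 2 in females 30 of 38 digestive enzymes were negative (median -1.32), and on day 7 32 of 38 were positive (median 0.65), again with none called. Enterocyte markers summed to between 75.6 and 165 CPM in air females on day 2, against 55.5 to 102 CPM after exposure. On day 7 these ranges were 66.8 to 130.2 CPM and 107.5 to 135 CPM. In males on day 1, 18 digestive enzymes were positive and 20 negative, with a median of -0.04. On day 2 in males 19 were positive and 19 negative, with a median of -0.02. On day 7 in males 29 of 38 were negative, with a median of -0.30. Their sum was 15461 to 24666 CPM in air and 12986 to 14589 CPM after exposure, without overlap, on a day when all 5 lysozymes had a negative sign and none was called. Enterocyte markers summed on that day to between 136.9 and 177 CPM in air males and between 95.1 and 136.6 CPM after exposure, and the part of either list in the lysozyme values was not tested.

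Further lysozyme genes also had no call in the female exposure comparisons. Of 12 further family members, 11 have an entry and 7 were tested in females. On day 1, 6 of the 7 were negative, with a median of -0.58 and none called. CG6435 gave -2.78 (SE 0.80, adjusted p = 0.146) and CG6421 -1.92 (SE 0.56, adjusted p = 0.155). On day 2, 6 of 7 were negative with a median of -0.38, and on day 7, 6 of 7 were positive with a median of 0.45, with none called on either day. Over the days in exposed females CG6421 was called, with 2.47 for day 7 minus day 1 (SE 0.57, 3-day adjusted p = 0.0472). Females against males called 6 of 9 tested family members as lower in air and 8 of 9 in exposed flies, beside the 50.7% and 52% of all genes. The 4 amidases of the peptidoglycan recognition family, which break down bacterial wall fragments in the gut, were all negative on day 1 with a median of -0.41, and none was called. Antimicrobial peptide genes, 14 tested, were positive in 10 cases on day 1 (median 0.63) and in 13 cases on day 7 (median 2.40) in females, also with none called.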

How the data were processed

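Whole-fly total RNA went into QuantSeq 3′ end libraries, per the labels. The deposited values are unnormalized counts of reads per gene. The submitters' processing notes name fastp, STAR, HTSeq and the build dm6. Their versions and the annotation release were not stated there. The 36 tables hold 17583 entries each, and the 1 entry without a symbol was left out. Positions came from Ensembl release 115 of BDGP6.54, which uses dm6 coordinates.

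Each sex was fitted apart (18 libraries in 6 groups) with edgeR (4.0.16, run in R 4.3.3). Genes were kept by filterByExpr (count minimum 10, total minimum 15), libraries were scaled by TMM, and contrasts were tested with the quasi-likelihood F test, with Benjamini-Hochberg adjustment over all genes tested and a threshold of 0.05. There were 9893 genes tested in females, 12871 in males and 13241 in the fit of all 36 libraries that compared the sexes. Fold changes carry a prior count of 0.125. Levels are TMM-scaled CPM, computed for each sex alone, except the LysE means set between the sexes, scaled over all 36 libraries. Shares are of raw counts. Correlations are of log2 CPM scaled over all 36 libraries, with a prior count of 2 and each value less the mean of its sex. DESeq2 1.42.0 was an alternative. Mixed libraries are those over 100 CPM for roX1 and over 1000 CPM for Yp1.

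The genes and the lists beside them were chosen with earlier results of these data known. All 7 genes are described. The 5 genes most like LysD were named by rule, since it has the highest mean. Those most like LysX were added after values were seen. Equal replicate numbers were not taken to pair the libraries. No repeated library was found among the 36 pairs of replicates, whose chi-square per degree of freedom was at least 10.4. The fits were checked on simulated counts.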

Additional observations from a re-analysis of the deposited data

Results flagged for a closer look

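The exposure effect differed between the sexes on day 2 for LysB, by -2.63 on the log2 scale (adjusted p = 0.036), and for LysD, by -2.49 (adjusted p = 0.0403), by the edgeR interaction test in 36 libraries. Without the mixed libraries the differences were -2.89 and -3.22, and neither passed (adjusted p = 0.287 and 0.165). Without air female replicate 1 of day 2 they were -1.40 and -1.28, and each call was lost with 8 of the 12 single libraries left out.

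The exposure effect on LysB in females was -2.37 on day 1 and 0.89 on day 7, and that on LysD was -2.41 and 0.54. All exposed libraries lay below all air libraries on day 1, as in 8.98% of all genes tested. They lay above all air libraries on day 7, as in 9.33% of all genes tested. The edgeR test of any difference among the 3 days did not pass for either gene (adjusted p = 0.18 for LysB and 0.222 for LysD).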

How the results depend on the processing

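Over all alternatives, 724 of 827 values kept their direction and their side of the threshold, 64 newly passed it, 26 no longer did and 13 reversed. For LysB, LysD and LysE in females on days 1 and 2, all 84 alternative values kept a negative sign, 23 of them newly past the threshold. These totals and those over all alternatives include the series threshold, applied to the fit reported for exposure effects. There the sign cannot change, and a value newly past it has an unadjusted p below 0.05. Replicate numbers were not taken to pair the libraries, since no label says that a number marks a shared culture or day. Of 18 correlations between same-numbered libraries, 4 were over 0.1 (range -0.06 to 0.228), all 4 of them on day 2. Of 18 libraries, 8 matched their own number best. The cause of the differences below was not tested.

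Counts of lysozymes called out of 5 moved as follows. The share of all genes called moved as well, in day 1 females from 0.263% in the fit reported to 2.76% by DESeq2. That share is not given beside each count, so no count here is read as a result about lysozymes. In day 1 females, with 0 in the fit reported, there were 4 by the series threshold, 2 without a filter, 2 by DESeq2, 3 with the replicate block, 1 in the fit of all 36 libraries and 3 in that of the 6 libraries compared. In day 2 females, with 0 reported, there were 3 by the series threshold, 1 without a filter, 3 with the block and 2 with 36 libraries. For the change over days in females, with 0 reported, there were 2 without a filter, 2 with the block, and 0 to 2 when single libraries were left out. The 2 appeared without day 2 air replicate 1. Over days in exposed females, with 0 reported, there were 3 without a filter, 2 by DESeq2, 1 without the mixed libraries, 1 with the block, 2 with 36 libraries, and 0 to 1 on leaving out single libraries, the 1 without exposed replicate 1 of day 2. In day 2 males, with 0 reported, there were 2 by the series threshold, 1 by DESeq2, 1 with 36 libraries, and 0 to 2 on leaving out single libraries, the 2 without exposed replicate 1. Over days in air males there were 1 by DESeq2 and 2 without the mixed libraries, against 0. In exposed males there were 1 by DESeq2, 1 with 36 libraries and 0 to 1 on leaving out single libraries, against 0, the 1 without exposed replicate 1 of day 2. The 2 calls of the sex difference on day 2 became 0 without the mixed libraries, 0 with the block and 0 to 3 on leaving out single libraries. Females against males in air gave 2 without the mixed libraries and 0 to 2 on leaving out single libraries, against 1.

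Exposure effects that reversed were small or came from LysX. In day 1 males LysX gave 1.13 with the replicate block and -0.60 to 1.80 on leaving out single libraries, LysE -0.34 to 0.003 and LysP -0.57 to 0.29. In day 7 males LysX gave -3.81 to 0.15 and LysE -0.37 to 0.21. In females LysX gave -1.84 to 1.06 on day 1 and -0.73 to 0.61 on day 2, LysP -0.60 to 0.24 on day 2 and LysE -0.039 to 0.435 on day 7. Depth limits LysS, at 23 counts in all.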

Other observations

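LysX was below 1 CPM in 8 libraries, 4 female and 4 male, and the highest of these stood at 0.691 CPM. The next libraries had 1.82, 2.33 and 3.48 CPM. No group held more than 1 of the 8, which came from 8 groups, and both mixed libraries were among them. Replicate 2 of air males on day 2 had no LysX count at all. The genes most like LysX over the 36 libraries were CG14499 (r = 0.882), CG42825 (r = 0.819) and lectin-37Da (r = 0.818), a gene for a sugar-binding protein of the C-type lectin family. CG14499 had a mean of 6.01 ± 4.37 CPM in exposed females on day 1 and 128 ± 23.2 CPM on day 7 (SD, n = 3). In the same groups lectin-37Da had 20.5 ± 8.88 and 138.9 ± 33.6 CPM.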
